A study of Mus musculus with 2 samples.

Results

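Lyve1 Cd163 macrophages are the scavenging macrophages that line the vessels and connective tissue of lean organs, fat included. In single-cell transcriptomes of mouse epididymal fat they were picked out cell by cell. Barcodes with fewer than 500 genes, or with over 20% of their UMIs (unique molecular identifiers, 1 per captured transcript) from mitochondria, were dropped. Macrophages were the remaining barcodes with C1qa, C1qb and C1qc at 0.5% of UMIs or more, and with 9 fibroblast genes (Dcn, Col1a1, Col1a2, Col3a1, Lum, Clec3b, Serpinf1, Dpt and Mfap5) under 1.5%. Members then had at least 2 UMIs of Lyve1, Cd163 and Timd4 together and at most 1 UMI of Gpnmb, Spp1 and Mmp12, which mark lipid-associated macrophages. They numbered 87 of the 6840 barcodes of the high-fat diet (HFD) library and 1644 of the 7365 barcodes of the normal chow diet (NCD) library. Gated macrophages with no UMI of Lyve1, Cd163 or Timd4, 1524 in the HFD and 377 in the NCD library, served as the contrast and are called macrophages without gate UMIs.

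Both libraries came from the stromal vascular fraction, the cells other than adipocytes, of epididymal white fat of male wild-type C57BL/6J mice aged 18 weeks. The HFD mice had eaten the fatty diet for 12 weeks and the NCD mice had eaten chow. The tissue was digested with collagenase and the cells were run on a droplet-based 3' kit. Each diet had 1 library, the number of mice in it is not given in the sources used here, and diet and library cannot be told apart. No test across samples was possible, so each value is given for both libraries with a 95% interval that covers counting error only.

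Lyve1 (chr7:110850607-110863239, minus strand) encodes a hyaluronan receptor shared with lymphatic endothelium. Cd163 (chr6:124304656-124330527, plus strand) encodes the receptor that takes up haptoglobin-haemoglobin complexes, and Timd4 (chr11:46810800-46844332, plus strand) encodes the phosphatidylserine receptor TIM-4, used to engulf dying cells. Folr2, a folate receptor gene, is the usual companion of these genes in vessel-associated macrophages and was not used by the gate. Such macrophages clear proteins, dead cells and iron from the tissue, are replenished slowly from blood in adulthood, and Timd4 marks those that renew locally in many organs. Residence in the tissue was not measured here. Coordinates are those of GENCODE vM21 on GRCm38.

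The stretches of 250 bases before the start of 4 genes are shown, because Cd163 and Timd4 defined the cells while Vsig4 and Retnla carried large differences between the libraries. They are RefSeq sequences on GRCm38.p6, written 5′ to 3′ on the gene's strand. Capitals mark TGCTGA, the half-site of the Maf recognition element, and AGGAAGT, a core bound by PU.1, or the reverse complement of either. The first was held by 16.1% and the second by 7.69% of all 32851 promoters of the same length, on either strand, and the motifs do not overlap in these stretches.
Cd163, chr6:124304401-124304650, plus strand: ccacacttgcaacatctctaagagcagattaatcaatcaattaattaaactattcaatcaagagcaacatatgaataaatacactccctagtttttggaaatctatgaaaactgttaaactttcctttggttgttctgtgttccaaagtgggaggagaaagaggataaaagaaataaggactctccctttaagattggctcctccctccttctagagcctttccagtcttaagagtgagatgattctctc
Timd4, chr11:46810549-46810798, plus strand: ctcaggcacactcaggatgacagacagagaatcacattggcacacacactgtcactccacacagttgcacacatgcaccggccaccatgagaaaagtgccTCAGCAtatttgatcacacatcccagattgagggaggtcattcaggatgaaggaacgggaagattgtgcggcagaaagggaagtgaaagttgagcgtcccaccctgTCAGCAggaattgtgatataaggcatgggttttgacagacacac
Vsig4, chrX:96293439-96293688, minus strand: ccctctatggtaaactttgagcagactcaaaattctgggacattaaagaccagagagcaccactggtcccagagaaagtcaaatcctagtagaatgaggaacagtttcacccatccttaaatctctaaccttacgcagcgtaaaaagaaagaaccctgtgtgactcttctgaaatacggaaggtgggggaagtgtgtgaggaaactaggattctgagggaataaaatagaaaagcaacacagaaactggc
Retnla, chr16:48842359-48842608, plus strand: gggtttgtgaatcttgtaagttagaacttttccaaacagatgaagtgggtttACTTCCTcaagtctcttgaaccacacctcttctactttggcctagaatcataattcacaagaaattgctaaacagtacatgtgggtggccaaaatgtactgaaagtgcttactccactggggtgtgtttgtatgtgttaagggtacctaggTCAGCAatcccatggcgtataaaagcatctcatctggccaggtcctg
Timd4 held 2 matches to the Maf half-site, at 150 and 44 bases before the start, and Retnla held 1 at 47 bases. Retnla also held 1 match to the PU.1 core, at 198 bases before the start. Cd163 and Vsig4 held 0 matches to either. A match describes letters only and is not a binding site.

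Members were a small share of HFD macrophages and the larger part of NCD macrophages. They made up 4.98% (4.01 to 6.11) of 1747 gated macrophages in the HFD library and 72.3% (70.4 to 74.1) of 2274 in the NCD library. Of all barcodes that passed the filters they were 1.28% (1.03 to 1.58) of 6786 in the HFD library and 22.4% (21.4 to 23.4) of 7344 in the NCD library. The log2 ratio of the shares of gated macrophages, HFD over NCD, was −3.86. Depth differed in the same direction, since the median member had 2742 UMIs in the HFD and 3836.5 UMIs in the NCD library. After each cell was thinned to 1400 UMIs, which kept every gated cell, members were 3.21% (2.43 to 4.14) and 46.0% (43.9 to 48.0), a log2 ratio of −3.84.

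**Figure D1:**
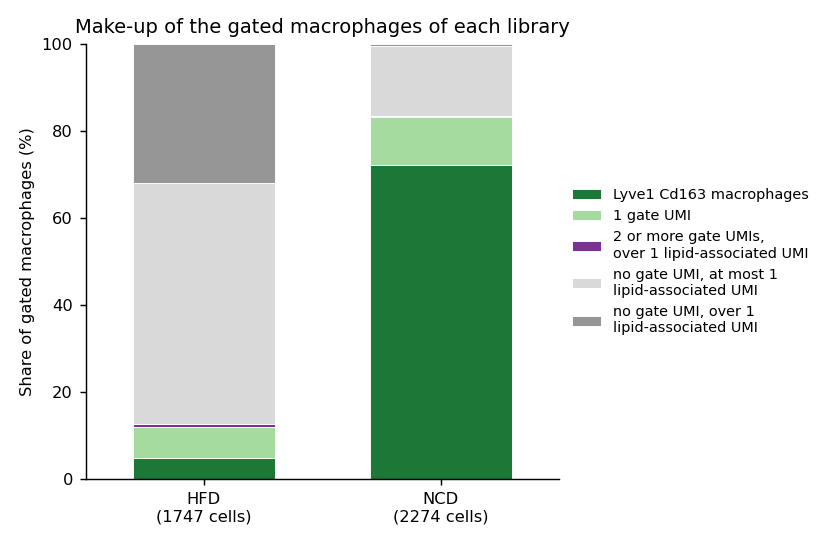
Stacked bars give the share of gated macrophages (%, y axis) in the HFD library (left, 1747 cells) and the NCD library (right, 2274 cells) by UMIs of Lyve1, Cd163 and Timd4 (gate UMIs) and of Gpnmb, Spp1 and Mmp12 (lipid-associated UMIs). Members are 4.98% of the HFD bar and 72.3% of the NCD bar.

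Library totals of the gate genes are given as a description, since the rule used these genes. Lyve1 stood at 23.8 CPM (the gene's UMIs scaled to a fixed total per group of cells) over the whole HFD library and 210.9 CPM over the NCD library, Cd163 at 15.3 and 146 CPM, and Timd4 at 1.83 and 12.0 CPM. Members held 60.6% of all Lyve1 UMIs of the HFD library and 90.6% of those of the NCD library. For Cd163 the shares were 40.4% and 86.5%, and for the UMIs of all genes 1.75% and 19.6%. Counts at the edges of the gate were also given to place the threshold. Cells with exactly 2 gate UMIs, just inside it, were 28 of 87 HFD and 228 of 1644 NCD members, and cells with 1 gate UMI, just outside, were 122 HFD and 248 NCD macrophages. The median member had 3 gate UMIs in the HFD and 6 in the NCD library. At the other limit, 14 HFD and 5 NCD cells had enough gate UMIs and were left out for over 1 lipid-associated UMI.

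Members differed in which gate transcripts they held. Both transcripts were found in 29.9% (20.5 to 40.6) of HFD and 64.2% (61.9 to 66.6) of NCD members. Lyve1 without Cd163 was found in 48.3% and 21.0%, and Cd163 without Lyve1 in 21.8% and 14.4%. At 1400 UMIs per cell, a Lyve1 UMI was found in 67.8% (56.9 to 77.4) of HFD and 65.4% (63.0 to 67.7) of NCD members, and a Cd163 UMI in 36.8% (26.7 to 47.8) and 55.7% (53.2 to 58.1). As summed levels, Lyve1 was at 827 CPM in HFD and 976 CPM in NCD members, and Cd163 at 353 CPM in HFD and 644 CPM in NCD members. Timd4 was found in 9 HFD members, 10.3% (4.84 to 18.7), and in 222 NCD members, 13.5% (11.9 to 15.3). Thinned, the Timd4 shares were 6.90% and 6.45%. These are values of the genes that chose the cells and are given as a description.

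Folr2, which the rule did not use, marked the members of both libraries alike. A Folr2 UMI was found at 1400 UMIs per cell in 85.1% (75.8 to 91.8) of HFD and 83.2% (81.3 to 85.0) of NCD members, and unthinned in 93.1% and 95.4%. Among macrophages without gate UMIs the thinned share was 40.3% in the HFD and 34.7% in the NCD library. Cells gated as adipose progenitors, which should lack the gene, gave 6.84% in the HFD library, at a median of 1975 UMIs, and 2.55% in the NCD library, at a median of 4666 UMIs. Its level was 1681 CPM in HFD and 1787 CPM in NCD members, a ratio of 0.941 (0.862 to 1.02). The general macrophage genes were present as well. Csf1r, the receptor for the macrophage growth factor CSF1, stood at 630 CPM in HFD and 911 CPM in NCD members. Adgre1, which encodes F4/80, stood at 261 CPM in HFD and 340.1 CPM in NCD members.

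Markers of other cells were summed in the members, with the level in the whole library as the measure. Of 5 measured markers of lymphatic endothelium, which also carries Lyve1, Prox1 and Mmrn1 were at 0 in both libraries, and the list summed to 30.7 CPM in HFD members and 3.93 CPM in NCD members. Gata6, which defines the large macrophages of the peritoneal cavity, had 1 UMI in HFD and 4 UMIs in NCD members. Mural cell markers (4 genes) summed to 0 in HFD members and to 9.22 CPM in NCD members, and mesothelial markers (5 genes) to 3.07 and 2.27 CPM. Progenitor markers (10 genes, none at 0) summed to 1042 CPM in HFD and 249 CPM in NCD members, a median per gene of 16.5% and 5.67% of their level in the whole library. Mast cell markers (4 genes) summed to 141 CPM in HFD members and 0.755 CPM in NCD members, and to 124 CPM in HFD macrophages without gate UMIs. The mast cell sum in HFD members was 81.8% of the library level. Blood endothelial markers (7 genes) summed to 332 CPM in HFD members and 977 CPM in NCD members, or 21.3% and 38.5% of the library level, and Fabp4 gave 97 of 108 HFD and 5758 of 6468 NCD UMIs. Dendritic cell markers (7 genes) summed to 101 and 209 CPM, or 193% and 133% of the library level, of which Cd209a gave 31 of 33 HFD and 1332 of 1383 NCD UMIs. Neutrophil markers (4 genes) summed to 18.4 and 40.6 CPM, or 101% and 67.5% of the library level, from 6 HFD and 269 NCD UMIs. Monocyte markers (6 genes) summed to 89.1 and 144 CPM, T and NK cell markers (6 genes) to 36.9 and 13.4 CPM, and B and plasma cell markers (5 genes) to 104 and 157 CPM. Some sums lean on single cells. The highest NCD cell gave 874 of 1036 B and plasma cell UMIs, and for neutrophil markers 162 of 269. The highest HFD cell gave 22 of 46 mast cell UMIs. The part of transcripts from other cells in the differences between the libraries was addressed only by subtracting the library profile. That value is given beside genes named for the diets that it moved by over 1.5 times. The amount taken was set by the median of the progenitor markers, 16.5% of the library profile in HFD and 5.67% in NCD members. It can leave either group near or at 0 UMIs, so a log2 ratio that rises after it cannot show what those transcripts contribute. The libraries shared 64 barcode sequences, which were 0 HFD members and 17 NCD members.

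Between HFD and NCD members 2652 genes were compared, those with at least 50 CPM in the higher group and at least 20 UMIs in both together. Of them 112 (4.22%) were at least 2-fold higher in HFD members and 100 (3.77%) at least 2-fold lower, with a median log2 ratio of 0.01. These shares over all genes stand beside the counts of each list compared between HFD and NCD members. Of 34 resident genes compared, 2 were at least 2-fold higher and 6 at least 2-fold lower, with a median log2 ratio of −0.33. The higher genes were Vsig4 and Ccl8, and the lower ones included Pla2g2d, Mgl2, Ccl24 and Retnla.

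**Figure D2:**
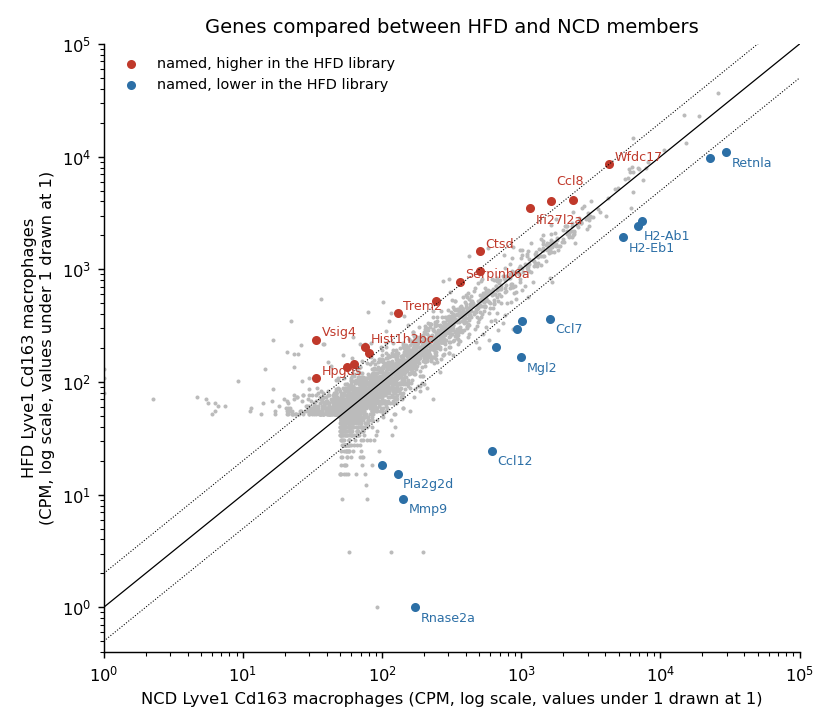
Each point is 1 of the genes compared, at its CPM in NCD members (x axis, log scale) and in HFD members (y axis, log scale); the solid line marks equal values, the dotted lines 2-fold differences, and coloured points the genes named by rank. Vsig4 and Trem2 lie above the upper dotted line, and Rnase2a, Ccl12, Mmp9, Mgl2 and Retnla below the lower one.

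Scavenger receptors take up proteins, lipids and debris. Of 12 scavenger receptor genes compared 0 passed 2-fold in either direction, against 4.22% higher and 3.77% lower of all genes, and their median log2 ratio was 0.07. Mrc1, the mannose receptor gene, was at 510.1 CPM in HFD and 842 CPM in NCD members, a ratio of 0.606 (0.516 to 0.707). Dab2, an adaptor for receptor-mediated uptake, was at 507 CPM in HFD and 792 CPM in NCD members. Cd68, which encodes a lysosomal glycoprotein, was higher in HFD members, at 900.3 CPM in HFD and 507 CPM in NCD members. Stab1 (stabilin 1), named after its values were seen, was at 387 and 371 CPM, a ratio of 1.04 (0.866 to 1.25). Of 10 genes for the uptake of dying cells, 1 was at least 2-fold higher, Anxa1 at 323 CPM in HFD and 153 CPM in NCD members, and 0 were lower. The bridging ligand gene Gas6 was at 685 CPM in HFD and 552 CPM in NCD members, a ratio of 1.24 (1.08 to 1.42).

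C-type lectins, receptors that bind sugars on microbes and glycoproteins, were lower in HFD members as a list. Of 15 compared, 4 were at least 2-fold lower and 0 higher, with a median log2 ratio of −0.72 and a range over the alternative settings of −0.75 to −0.45. Mgl2, a galactose-type lectin gene, had 54 UMIs in 28 of 87 HFD members and 6609 UMIs in 1406 of 1644 NCD members. This is 166 CPM in HFD against 999 CPM in NCD members, a ratio of 0.166 (0.125 to 0.217). The Cd209 genes, mouse relatives of the lectin DC-SIGN, were lower too. Cd209f was at 845 CPM in HFD and 1605 CPM in NCD members (ratio 0.526, 0.465 to 0.593), Cd209b at 89.1 and 210.3 CPM (0.424, 0.283 to 0.611), and Cd209a at 95.3 and 201 CPM (0.473, 0.320 to 0.675). With at least 1 gate UMI the log2 ratios of Cd209b and Cd209a were −1.87 and −1.75 in place of −1.24 and −1.08. With the gate on thinned counts that of Cd209a was −2.29. That setting only chose the cells again, 56 HFD and 1045 NCD members, and their levels were still summed from full counts. Clec10a, the paralog of Mgl2, was at 633 CPM in HFD and 619 CPM in NCD members, a ratio of 1.02 (0.884 to 1.18), and was chosen for mention after its value was seen. Reads of such near copies can be shared or lost in counting, so the split between Mgl2 and Clec10a and among the Cd209 genes is uncertain.

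Genes of MHC class II, which presents peptides to helper T cells, were lower in HFD members. Of 7 compared, 6 were at least 2-fold lower in HFD members and 0 higher, with a median log2 ratio of −1.32. H2-Aa was at 2704 CPM in HFD and 7418 CPM in NCD members (ratio 0.364, 0.341 to 0.390), while H2-Ab1 stood at 2421 CPM in HFD and 6949 CPM in NCD members (0.348) and H2-Eb1 at 1933 CPM in HFD and 5372 CPM in NCD members (0.360). Cd74, the invariant chain that escorts class II molecules, was at 9697 CPM in HFD and 22663 CPM in NCD members, a ratio of 0.428 (0.413 to 0.443). H2-DMa and H2-DMb1, which load the peptide, had ratios of 0.400 and 0.404. Per cell, H2-Aa, H2-Ab1, H2-Eb1 and Cd74 made up a median of 0.903% of UMIs in HFD members (quartiles 0.241 and 1.88) and 3.85% in NCD members (1.58 and 6.12), so the upper quartile of HFD members lay just above the lower quartile of NCD members. With the gate applied to thinned counts the list median was −2.06.

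**Figure D3:**
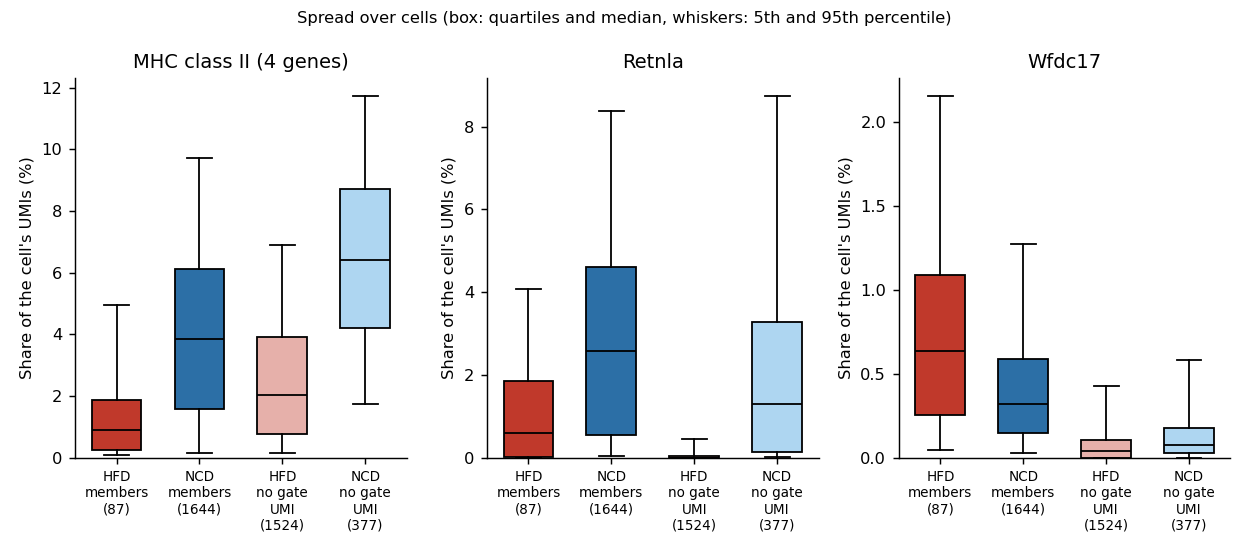
Boxes give the share of each cell's UMIs (%, y axis) from 4 MHC class II genes, Retnla and Wfdc17 in HFD and NCD members and in HFD and NCD macrophages without gate UMIs, with cell numbers in parentheses (box: quartiles and median; whiskers: 5th and 95th percentile). Median MHC class II shares are 0.903% in HFD and 3.85% in NCD members, and median Wfdc17 shares 0.634% and 0.319%.

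Genes tied to alternative activation, the state that interleukins 4 and 13 induce, were lower in HFD members in part. Of 9 compared, 3 were at least 2-fold lower and 0 higher, with a median log2 ratio of −0.72, which was −1.44 for genes of at least 200 CPM. Retnla, a resistin-like secreted protein and the most abundant of them, had 3559 UMIs in 70 of 87 HFD members and 195830 UMIs in 1599 of 1644 NCD members. Its level was 10935 CPM in HFD and 29586 CPM in NCD members, a ratio of 0.370 (0.357 to 0.382). Per cell it made up a median of 0.586% of UMIs in HFD members (quartiles 0.0193 and 1.84) and 2.58% in NCD members (0.545 and 4.61), and 1 HFD cell gave 12.3% of the HFD UMIs. Retnla was also found, at 1400 UMIs per cell, in 15.6% of HFD and 38.3% of NCD progenitors, against 73.6% of HFD and 91.2% of NCD members. Ccl24, an eosinophil attractant, was at 347 CPM in HFD and 1013 CPM in NCD members (0.343, 0.282 to 0.413). Chil3 and Arg1, named after their values were seen, had 0 UMIs in HFD members and 13 and 6 UMIs in NCD members, which is under the level compared.

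Chemokines went both ways within the members. Of 20 chemokine and cytokine genes compared, 4 were at least 2-fold higher and 5 lower, with a median log2 ratio of −0.05. The monocyte attractants were lower. Ccl2 was at 298 CPM in HFD and 928 CPM in NCD members (ratio 0.321, 0.260 to 0.392), and Ccl7 at 366 and 1600.0 CPM (0.229, 0.189 to 0.274). Ccl12, their mouse relative, had 8 UMIs in 6 HFD members and 4087 UMIs in 564 NCD members, 24.6 and 617 CPM, a ratio of 0.0398 (0.0172 to 0.0785). With at least 1 gate UMI asked for in place of 2, the log2 ratio of Ccl12 was −2.19 in place of −4.65. Ccl8, encoded in the same chromosome 11 cluster, was higher instead, at 4056 CPM in HFD members (1320 UMIs in 63 cells) and 1645 CPM in NCD members (10885 UMIs in 937 cells), a ratio of 2.47 (2.33 to 2.61). Without the highest cell of each library the Ccl8 ratio was 2.15. Ccl4 was at 135 CPM in HFD and 56.4 CPM in NCD members, with 38.6% of its HFD UMIs in 1 cell. Cxcl13 had 132 UMIs in HFD members, all in 1 cell, and 762 UMIs in 85 NCD members, so its ratio of 3.52 is a value of that cell.

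Complement and secreted host defence genes included several that were higher in HFD members. Vsig4 encodes a complement receptor of resident macrophages that binds C3 fragments. It had 77 UMIs in 13 of 87 HFD members and 223 UMIs in 74 of 1644 NCD members, or 237 CPM in HFD (187 to 296) and 33.7 CPM in NCD members (29.4 to 38.4). The ratio was 7.02 (5.35 to 9.14), and 6.03 without the highest cell of each library, which gave 26.0% of the HFD UMIs. Nearly all Vsig4 of the NCD library, 223 of 237 UMIs, lay in members, against 77 of 227 UMIs in the HFD library. Of the UMIs of all genes, members held 19.6% in the NCD and 1.75% in the HFD library. Of 12 complement genes compared, 3 were at least 2-fold higher and 0 lower, with a median log2 ratio of 0.18. The others past 2-fold were Serping1, the C1 inhibitor gene, at 215 CPM in HFD and 37.6 CPM in NCD members, and C3 at 175 and 52.6 CPM. Progenitors also transcribe both genes, and after subtraction of the library profile their log2 ratios were 4.52 and 2.49 in place of 2.52 and 1.74. With a stricter cell filter they were 1.32 and 0.93, which is under 2-fold for C3. C4b was at 461 CPM in HFD and 322 CPM in NCD members, a ratio of 1.43. Wfdc17, a small secreted whey acidic protein gene, was at 8566 CPM in HFD and 4275 CPM in NCD members (95% interval of the ratio 1.93 to 2.08), and Ifi27l2a, an interferon-induced gene, at 3509 and 1160 CPM (3.02, 2.84 to 3.22).

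Rnase2a, an eosinophil-type ribonuclease gene, was not captured in HFD members. It had 0 UMIs in HFD members and 1145 UMIs in NCD members, in 17.4% of them, which is 173 CPM and at least 18.8-fold lower in HFD members with 3 counts over the group set as the floor. The whole HFD library held 1 Rnase2a UMI and the whole NCD library 1412. Members of this ribonuclease family are near copies, so reads may be shared between them. Mmp9, the gelatinase gene, had 3 UMIs in HFD and 939 UMIs in NCD members (ratio 0.0650, 0.0134 to 0.190). Pla2g2d, a secreted phospholipase gene, had 5 and 858 UMIs (0.119, 0.0384 to 0.278), and the adhesion gene Vcam1 6 and 666 UMIs (0.183, 0.067 to 0.401). All 3 rest on 6 or fewer HFD UMIs, and with the gate on thinned counts the log2 ratio of Pla2g2d was −4.50 in place of −3.08. After subtraction of the library profile that of Vcam1 was −3.52 in place of −2.45.

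Lipid-associated genes were higher in HFD members even though the gate had left out cells with over 1 UMI of Gpnmb, Spp1 and Mmp12. Of 20 such genes compared, 10 were at least 2-fold higher and 1 lower, with a median log2 ratio of 1.03 and a range over the alternative settings of 0.79 to 1.52. Trem2, the lipid receptor gene of foamy macrophages, had 132 UMIs in 48 of 87 HFD members and 862 UMIs in 514 of 1644 NCD members. It was at 406 CPM in HFD and 130.2 CPM in NCD members, a ratio of 3.11 (2.57 to 3.74). Lpl, lipoprotein lipase, was at 510.1 CPM in HFD and 101 CPM in NCD members (5.05, 4.24 to 6.00), with 24.1% of the HFD UMIs in 1 cell. With at least 1 gate UMI the log2 ratios of Trem2 and Lpl were 2.33 and 3.13 in place of 1.64 and 2.34. Cd9, a tetraspanin gene, was at 212 and 26.3 CPM (8.06, 6.01 to 10.7), with a log2 ratio of 4.26 in place of 3.01 after subtraction of the library profile. At 1400 UMIs per cell, Trem2 was found in 36.8% of HFD and 13.8% of NCD members. In progenitors it was found in 13.5% and 0.522%. Lpl was found in 41.4% of HFD members and 73.1% of HFD progenitors, and Cd9 in 26.4% and 62.9%. In the NCD library Lpl was found in 10.6% of members and 51.9% of progenitors, and Cd9 in 3.16% and 45.1%. Plin2, which coats lipid droplets, was at 965 CPM in HFD and 503 CPM in NCD members (1.92, 1.70 to 2.15). Slc37a2 and Fabp5 were 4.59-fold and 3.58-fold higher, from 21 and 35 HFD UMIs. The 1 lower gene, Fabp4, was at 298 CPM in HFD and 869.9 CPM in NCD members, but at 254 CPM in NCD members without called doublets, when its log2 ratio was 0.23 in place of −1.55. The log2 ratio of Fabp4 was −0.12 with at least 1 gate UMI and −3.29 after subtraction of the library profile. In members Trem2, Lpl and Cd9 stayed under HFD macrophages without gate UMIs, where they stood at 1259, 2298 and 738 CPM. Those cells had no limit on Gpnmb, Spp1 and Mmp12, so the gate itself favours lower levels in members. In those with at most 1 such UMI, Trem2 stood at 896 CPM and Cd9 at 565 CPM. The 26 lipid-associated genes not used by the gate summed to 39858 CPM in HFD members and 39808 CPM in those limited cells. A shorter list of 6 markers (Trem2, Cd9, Lpl, Itgax, Fabp5 and Atp6v0d2) was not equal. It summed to 1284 CPM in HFD members and 3616 CPM in those limited cells.

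Lysosomal genes were higher by smaller amounts across the list. Of 30 compared, 23 had a ratio above 1, 4 were at least 2-fold higher and 0 lower, with a median log2 ratio of 0.55. The aspartic protease gene Ctsd was at 1450 CPM in HFD and 507 CPM in NCD members (2.86, 2.59 to 3.15), Ctsl at 787 and 272 CPM (2.89, 2.52 to 3.30), and Ctsb at 4108 and 2335 CPM (1.76, 1.66 to 1.86). Ctsk, a collagen-degrading cathepsin gene, had 24 UMIs in HFD members, of which 1 cell held 12, and 31 UMIs in NCD members, a log2 ratio of 3.98, or 5.73 after subtraction of the library profile and 2.05 with at least 3 gate UMIs. Iron genes gave 1 of 11 at least 2-fold higher and 2 lower, against 4.22% and 3.77% of all genes. Slc40a1, which encodes the iron exporter ferroportin, had 5 UMIs in HFD and 350 UMIs in NCD members (0.291, 0.0938 to 0.684), and the transferrin receptor gene Tfrc 7 and 394 UMIs (0.361, 0.144 to 0.751). With the gate on thinned counts the log2 ratios of Slc40a1 and Tfrc were −3.30 and −0.66 in place of −1.78 and −1.47. The haem oxygenase gene Hmox1, named after its values were seen, was at 418 CPM in HFD and 399 CPM in NCD members.

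Of 20 transcription factor genes compared, 1 was at least 2-fold higher, Id3, and 1 lower, Runx1, which is near the share over all genes (4.22% and 3.77%), with a median log2 ratio of −0.17. Maf, which maintains resident macrophage identity and was named after its value was seen, had a ratio of 0.895 (0.757 to 1.05). Immediate early genes, which tissue digestion can induce, had 0 of 28 at least 2-fold higher and 4 lower, with a median of −0.26. Ier3 was at 206 CPM in HFD and 660.4 CPM in NCD members, and Egr1 at 774 and 1665 CPM. Hpgds, a prostaglandin D synthase gene, was at 108 CPM in HFD and 33.5 CPM in NCD members (3.21, 2.18 to 4.59), whereas the cyclooxygenase gene Ptgs1 had 6 and 560 UMIs (0.218, 0.0796 to 0.477). Hist1h2bc, Serpinb6a, Capg, Pld3 and Gstp1 were from 2.14-fold to 2.73-fold higher in HFD members. Ranking left out genes that stood higher in barcodes outside the macrophage gate. Mgp and Rgs1, named after their values were seen, had larger ratios, with Mgp at 550.0 CPM in HFD and 36.4 CPM in NCD members and Rgs1 at 184 CPM in HFD and 20.7 CPM in NCD members. Mgp stood at 2485 CPM over the whole HFD library and 639.8 CPM over the NCD library, and Rgs1 at 335 and 40.0 CPM.

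The remaining lists are given by their counts past 2-fold and median log2 ratios. Over all genes 4.22% were higher and 3.77% lower. Growth factors had 0 of 6 in either direction and glycolysis and hypoxia genes 0 of 10, with medians of 0.20 and 0.48. Interferon genes had 1 of 9 higher and 0 lower (0.18), Fc receptor genes 0 of 14 higher and 1 lower, Fcrls (−0.05), and redox genes 3 of 23 higher and 2 lower (−0.02). Cholesterol and lipid genes had 3 of 12 higher and 1 lower (0.60). Of 10 matrix protease genes 3 were higher and 1 lower (0.55), but the list median became −0.13 after subtraction of the library profile. Its higher genes Timp1, Mmp2 and Sparc are also progenitor genes, and under that subtraction their log2 ratios were 3.87, 5.24 and −0.40 in place of 4.96, 3.12 and 1.43. Mmp2 is among the markers that set the amount subtracted, so its value there depends on that choice. Cell cycle genes had 3 of 9 higher and 0 lower (0.63). Cells with at least 3 of 11 division genes numbered 3 of 87 HFD members (3.45%, 0.717 to 9.75) and 21 of 1644 NCD members (1.28%, 0.792 to 1.95), and those 3 HFD cells held 101 of 111 division gene UMIs.

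The same diet difference in macrophages without gate UMIs places these values. There 228 of 2633 genes compared (8.66%) were at least 2-fold higher in the HFD library and 209 (7.94%) lower. These cells share the libraries with the members but not the cells, and the difference between the ratios was not tested. Resident genes had 2 of 31 higher and 15 lower, with a median log2 ratio of −0.99, against −0.33 in members. Lipid-associated genes had 23 of 26 higher and 0 lower, with a median of 1.88, against 1.03 in members. Retnla was at 1062 CPM in HFD and 24145 CPM in NCD macrophages without gate UMIs, a ratio of 0.0440, against 0.370 in members. Cbr2, a carbonyl reductase gene, and F13a1, coagulation factor XIII, had ratios of 0.133 and 0.117 there and of 0.786 (0.686 to 0.897) and 0.804 (0.715 to 0.901) in members. The Cd209 genes showed the same, with Cd209d at 4.30 CPM in HFD and 122 CPM in NCD macrophages without gate UMIs, and at 409 CPM in HFD and 674 CPM in NCD members. MHC class II genes had 6 of 7 lower in both, with medians of −1.27 without gate UMIs and −1.32 in members. Among cells without gate UMIs and with at most 1 lipid-associated UMI, 2 of 7 were lower, with a median of −0.95.

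**Figure D4:**
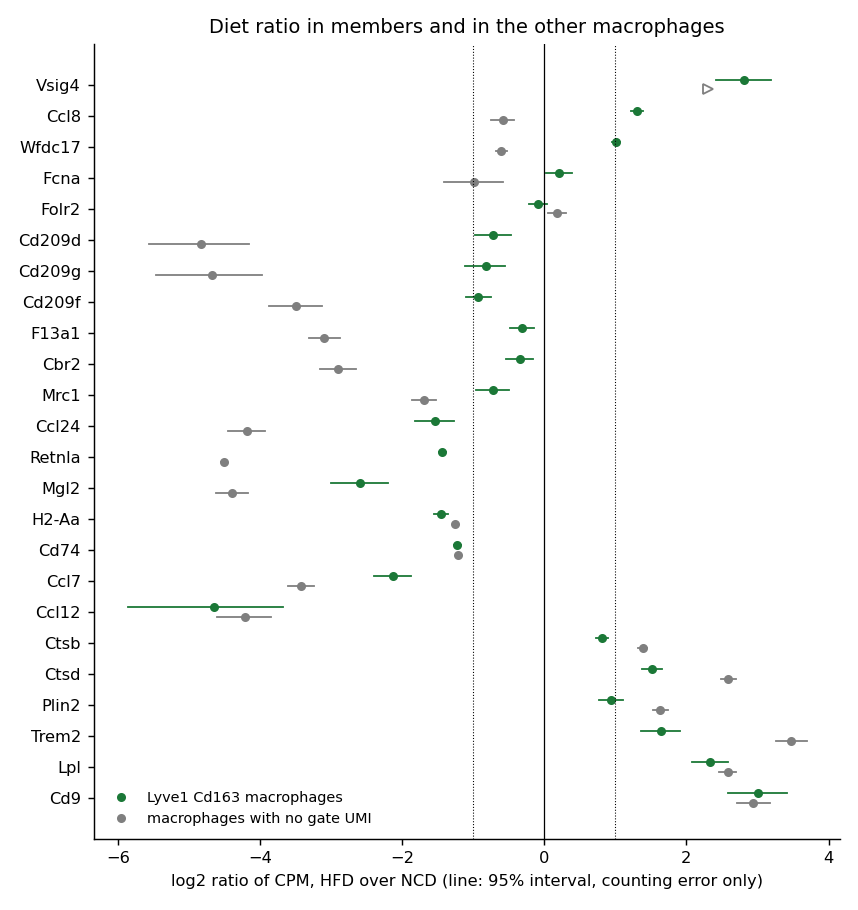
Points give the log2 ratio of CPM, HFD over NCD (x axis), in members (green) and in macrophages without gate UMIs (grey), with lines for the 95% interval of counting error; the open triangle is a bound set with 3 counts for a group at 0, and dotted lines mark 2-fold. Ccl8 and Wfdc17 lie above 0 in members and below 0 in the other macrophages, and Retnla lies at −1.44 in members and −4.51 in the others.

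Some genes stood on opposite sides in the 2 kinds of macrophage. Ccl8 was at 194 CPM in HFD and 291 CPM in NCD macrophages without gate UMIs, a ratio of 0.666, against 2.47 in members. Wfdc17 was at 876 and 1331 CPM there, a ratio of 0.658. Fcna, the ficolin A gene of the lectin pathway of complement, was at 26.2 and 52.2 CPM there (0.502), against 808 CPM in HFD and 698 CPM in NCD members (1.16, 1.02 to 1.31). Macrophages without gate UMIs differ in makeup between the libraries, since 558 of 1524 HFD and 9 of 377 NCD cells had over 1 lipid-associated UMI. Among those with at most 1 such UMI, 201 of 2583 genes compared (7.78%) were at least 2-fold higher in the HFD library and 158 (6.12%) lower. Retnla was then at 1390 CPM in HFD and 24476 CPM in NCD cells, and Trem2 at 896 and 110.5 CPM.

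Members were also set against the macrophages without gate UMIs of their own library. The gate chose the cells from these transcripts, so this is a description and nothing is read from the counts. In the HFD library 228 of 2641 genes compared (8.63%) were at least 2-fold higher in members and 165 (6.25%) lower, against 81 (3.18%) and 56 (2.2%) of 2544 in the NCD library. Against those with at most 1 lipid-associated UMI, the shares higher and lower in members were 7.58% and 5.4% of 2612 genes in the HFD and 3.11% and 2.09% of 2537 genes in the NCD library. Cd209f was at 845 CPM in HFD members and 16.8 CPM in HFD macrophages without gate UMIs, and at 1605 and 189 CPM in the NCD library. Fcna was at 808 and 26.2 CPM in the HFD and at 698 and 52.2 CPM in the NCD library. Ltc4s, leukotriene C4 synthase, was at 768 and 37.6 CPM in the HFD and at 975 and 168 CPM in the NCD library. Ednrb, an endothelin receptor gene, was at 353 and 17.8 CPM in the HFD and at 328 and 42.9 CPM in the NCD library. C4b was at 461 and 91.1 CPM in the HFD and at 322 and 36.7 CPM in the NCD library. Of 33 resident genes compared in each library, 26 were at least 2-fold higher in HFD members and 20 in NCD members, with 0 lower in either.

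Among genes lower in members, lipid-associated genes numbered 15 of 26 compared in the HFD library, against 6.25% of all genes. In the NCD library they were 4 of 18, against 2.2%. Members had a limit on lipid-associated UMIs and the contrast had none. Summed, 26 genes of this list stood at 39858 CPM in HFD members and 44261 CPM in HFD macrophages without gate UMIs. With at most 1 lipid-associated UMI the latter stood at 39808 CPM. In the NCD library the 3 sums were 23676, 16416 and 15911 CPM. The 6 markers Trem2, Cd9, Lpl, Itgax, Fabp5 and Atp6v0d2 were lowest in members of both libraries. Over the same groups they summed to 1284, 5053 and 3616 CPM in the HFD library. In the NCD library they summed to 297, 710 and 583 CPM. In the HFD library Lpl was at 510.1 CPM in members and 2298 CPM in macrophages without gate UMIs, Lgals3 (galectin 3) at 1324 and 4981 CPM, Fabp5 at 107.5 and 487 CPM and Atp6v0d2, a proton pump subunit gene, at 43.0 and 222 CPM. In the NCD library Ear2 was at 30.5 CPM in members and 259.7 CPM in macrophages without gate UMIs, Lyz1 (lysozyme 1) at 127 and 878 CPM, Il1b at 16.5 and 117 CPM, and Ccr2, the receptor that draws monocytes from blood, at 118 and 467 CPM. MHC class II medians were −0.67 in the HFD and −0.60 in the NCD library, with 0 of 7 genes past 2-fold in either. Against cells with at most 1 lipid-associated UMI, 4 of 7 were at least 2-fold lower in HFD members, with a median of −1.04, and 0 of 7 in NCD members, with a median of −0.61.

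Levels on both sides of the threshold describe the gate, among cells with at most 1 lipid-associated UMI. In the NCD library Folr2 was at 813 CPM in cells with 1 gate UMI, which lie outside the gate, 1341 CPM with 2, 1565 CPM with 3 to 5 and 2018 CPM with over 5. In the HFD library the same steps gave 1127, 1413, 1544 and 1947 CPM. Cd209f had a step at the gate in the HFD library, with 152 CPM at 1 gate UMI and 747 CPM at 2, against 733 and 1067 CPM in the NCD library. Retnla was at 4383 CPM at 1 gate UMI and 11206 CPM at 2 in the HFD library, and at 22533 and 27392 CPM in the NCD library. Trem2 was at 956, 475, 495 and 290 CPM over the 4 steps in the HFD library and at 127, 111, 115 and 143 CPM in the NCD library. Median depth over the same steps was 2091, 2041, 2350 and 5159.5 UMIs in the HFD and 3304, 3277.5, 3640.5 and 4147.5 UMIs in the NCD library, and its part in these values was not tested.

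Members with a Timd4 UMI were described first in the NCD library. They were 222 cells at a median of 4005.5 UMIs, against 1422 members without Timd4 at 3820 UMIs. Of 2521 genes compared, 19 (0.754%) were at least 2-fold higher with Timd4 and 3 (0.119%) lower. Vsig4 led, at 129.9 CPM with Timd4 (123 UMIs) and 17.6 CPM without (100 UMIs), a ratio of 7.37 (5.61 to 9.69). Cd209b was at 372 CPM with and 183 CPM without Timd4, Fcna at 1086 and 633 CPM, Wfdc17 at 6368 and 3926 CPM, Ifi27l2a at 1622 and 1083 CPM and Ccl8 at 2256 and 1542 CPM. MHC class II genes were lower with Timd4 by less than 2-fold, with H2-Ab1 at 4519 CPM with and 7355 CPM without Timd4 (0.614), while H2-Aa stood at 5001 and 7822 CPM (0.639) and Cd74 at 15800 and 23809 CPM (0.664). Mgl2 was at 830.1 and 1027 CPM (0.809). Retnla was near equal, at 29370 CPM with and 29622 CPM without Timd4.

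This comparison and that between the diets share the NCD members, so the values are only set side by side. The 9 HFD members with Timd4 had a median of 4400 UMIs and the 78 without it 2681 UMIs. Vsig4 was at 673 CPM (439.8 to 986) with and 178 CPM without Timd4 in the HFD library, Ccl8 at 10512 and 3187 CPM, Wfdc17 at 10771 and 8270 CPM, with H2-Aa at 569.6 and 2991 CPM and Cd74 at 3185 and 10574 CPM. In members without Timd4, Vsig4 was thus at 178 CPM in the HFD and 17.6 CPM in the NCD library, and H2-Aa at 2991 and 7822 CPM. The HFD values with Timd4 rest on 9 cells. That of Vsig4 rests on 26 UMIs found in 22.2% of them, and its interval does not cover the spread between cells.

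**Figure D5:**
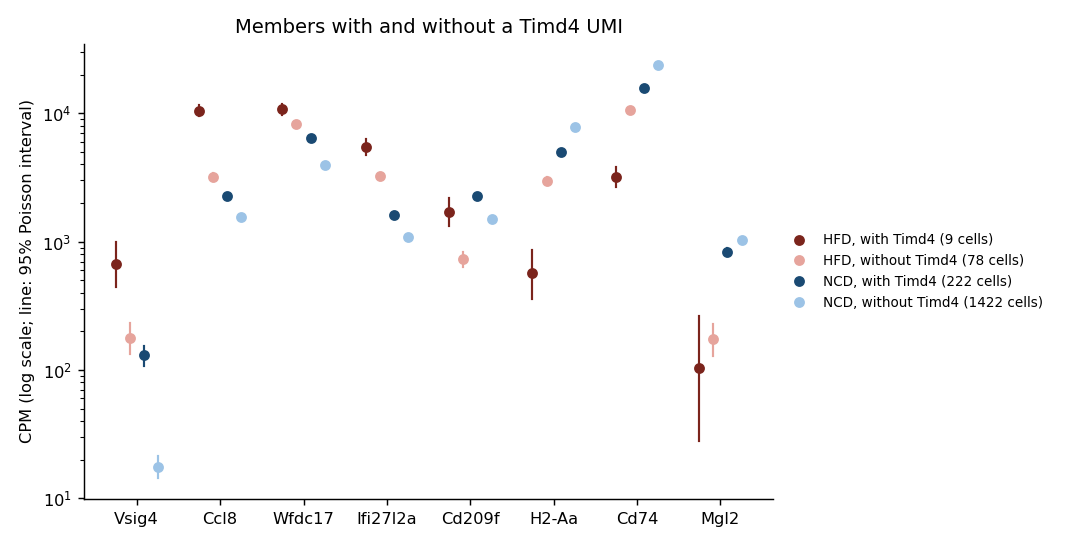
Points give CPM (y axis, log scale) of 8 genes in HFD members with and without a Timd4 UMI (9 and 78 cells) and NCD members with and without one (222 and 1422 cells), with lines for the 95% Poisson interval. From left to right Vsig4 is lower at each of the 4 groups and H2-Aa, Cd74 and Mgl2 are higher. Vsig4 was found in 22.2% of the 9 HFD members with Timd4.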

How the data were processed

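UMI counts per gene and barcode were deposited by the authors, 1 table per library with 27998 genes. Cell Ranger, Seurat and the mm10 build are named per the submitters' processing notes, with no version. Depth was 18623508 UMIs in the HFD and 33825653 UMIs in the NCD library, and deposited barcodes had at least 1401 and 1556 UMIs. Both were gated as the report describes, each group's UMIs were added up per gene and scaled to CPM, and genes with at least 50 CPM in the higher group and 20 UMIs in both were compared, at least 2-fold counting as different. Gating genes were left out of those counts, and 56 symbols stood for more than 1 gene. Ratios carry exact conditional binomial intervals, shares Clopper-Pearson and levels Poisson intervals, all at 95% and for counting error only. The genes named are the gating genes, up to 15 per comparison and direction, ranked by the interval's end nearest to 1, with at least 100 CPM, found in 10% of cells and no lower than in barcodes outside the macrophage gate, and up to 5 per list with at least 50 CPM. Others are said to be chosen after their values were seen. Members and lists were chosen with earlier results of these data known. Doublets were kept, and an alternative left out the top 5% of Scrublet scores per library (71 NCD and 0 HFD members). The comparison was run on simulated Poisson counts with known ratios, drawn from the NCD member profile. These hold no spread between cells or libraries, so that run cannot vouch for the genes counted as different. Python 3.11.15, numpy 2.4.6, scipy 1.17.1, pandas 2.3.3, scanpy 1.11.5, scikit-learn 1.9.0 and matplotlib 3.10.9 were used.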

Additional observations from a re-analysis of the deposited data

How the results depend on the processing

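No paired analysis was possible because there is 1 library per diet. The log2 ratio of the members' share of gated macrophages was −3.05 with at least 1 gate UMI, −4.20 with at least 3, −4.17 with 0 lipid-associated UMIs, −3.50 with stromal transcripts under 0.5%, −3.40 with the stricter cell filter and −3.26 with C1q at 1% or more, against −3.86. Genes higher in HFD than in NCD members numbered 169 with the gate on thinned counts and 171 with the mean of each cell's CPM, against 112. With a minimum of 10 CPM, 560 were higher and 729 lower, with 200 CPM 29 and 23, and at 4-fold 29 and 17. For NCD members against NCD macrophages without gate UMIs, 47 were higher with the gate on thinned counts. There the cells without gate UMIs could hold some at full depth. At 10 CPM 265 were higher and 204 lower, at 200 CPM 42 and 15, and at 4-fold 13 and 11. For the HFD library these were 125 and 71 with at least 1 gate UMI, 904 and 690 at 10 CPM, 69 and 39 at 200 CPM, and 52 and 38 at 4-fold. Between the diets, Cxcl13 turned to −1.66 and Soat1 to −0.044 with the gate on thinned counts. In the same comparison Cxcl13 turned to −3.24 with 0 lipid-associated UMIs and Fabp4 to 0.23 without doublet calls. Sparc turned to −0.40 after subtraction of the library profile. All 132 Cxcl13 UMIs of HFD members lay in 1 cell, and without it they stood at 0 CPM. Where a setting leaves either group at 0 UMIs, the value is a bound set with 3 counts. Cxcl13 in NCD members against the others turned to −0.85 with the gate on thinned counts. The cause was not tested. Of 103 named genes between the diets, 9 changed sign under at least 1 of 16 alternatives. Beside those 4 they were Axl, Gas6, Msr1, Fcgr1 and Nrp1, all within 2-fold as reported. Of 21 list medians, 7 changed sign. Leaving out the barcodes present in both libraries was an alternative chosen after seeing the data.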

Other observations

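Division genes were also counted outside the members. At least 3 of 11 division genes were found in 82 of 1524 HFD (5.38%, 4.30 to 6.63) and 12 of 377 NCD macrophages without gate UMIs (3.18%, 1.66 to 5.49), against 3 of 87 HFD and 21 of 1644 NCD members. These cells were not matched for depth, and the difference was not tested.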
